A study of Mus musculus with 3 samples.

Results

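Artery and vein endothelial spots are the spots of regenerating mouse muscle to which deconvolution assigned at least a small amount of RNA from the lining of arteries or veins. A spot was a member when the artery endothelial or the vein endothelial theta value was at least 0.01, and it was compared with the spots of the same section in which both were below 0.01. Theta is an estimate: the authors ran BayesPrism, which divides the transcripts of each spot among cell types of a single-cell reference, and theta is the fraction that 1 of the 27 deposited types received, so that the 27 values of a spot sum to 1. The deposited tables hold more types than the study's methods describe, and whether they come from another version of the reference is not given in the sources used here. By this rule 411 of 2758 spots were members, of which 222 passed for artery and 257 for vein. The members were chosen on the theta values themselves. The artery and vein theta values given here are therefore a description, and the other 25 theta values of a spot are tied to them because all share the same total.

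The spots came from 3 Visium sections of tibialis anterior muscle, a hindlimb muscle, from female C57BL6/J mice aged 5 months that had been injected with notexin, a snake venom phospholipase that destroys myofibers. The muscles were collected 2, 5 and 7 days post injury (dpi), with 1 section per time point, and all animals were injured, so no uninjured section served as a control. In a Visium section each barcoded spot captures polyadenylated RNA from whatever cells, or pieces of cells, lie above it. The 3 sections lay on 1 slide in separate capture areas, so a difference between time points cannot be told apart from one between animals or capture areas.

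Arteries carry blood into the muscle and veins drain it, with capillaries between them, and the endothelial cells of the 3 vessel kinds express partly different genes. The larger vessels are wrapped by smooth muscle cells, more thickly in arteries than in veins, and run in connective tissue between bundles of myofibers. After muscle injury, leukocytes leave the blood chiefly across the walls of small veins. Alpl and Vwf were named as markers of artery and vein endothelium, but gene-level values were not analysed here, so the 2 labels rest on the deconvolution alone and were not checked against markers.

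Spots of 1 section are neighbours from 1 animal and are not replicates. No p-value or standard error was formed from them. With 3 sections, the smallest 2-sided p that an exact paired test over sections allows is 0.25. Intervals in parentheses are exact Clopper-Pearson 95% intervals that cover the counting of spots only. Theta counts RNA and not cells, and a lower theta from fewer endothelial cells cannot be told apart from one due to less RNA per cell.

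Depth has to be read beside every value. The median spot had 5786, 11221 and 15135 unique molecular identifiers (UMIs, the count of distinct transcripts) at 2, 5 and 7 dpi. Spearman's rho over spots between UMIs and the lowest theta of a spot was between -0.82 and -0.75 in the 3 sections, so that small theta values were higher in shallow spots. For this reason most results are also given for the spots with 5000 to 10000 UMIs, which numbered 305, 255 and 163 in the 3 sections by time. The deepest section thus left the fewest spots within this window. The barcodes of 568 to 739 spots recurred in each pair of sections, because the capture areas use the same set of barcodes, and 15, 27 and 2 of the recurring barcodes were members in both sections (2 and 5 dpi, 2 and 7 dpi, 5 and 7 dpi), against 13.5, 21.1 and 4.02 expected from the member shares.

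The first question was how often artery and vein endothelial RNA was assigned to a spot at each time point. Both vessel types were found in the largest share of spots at 2 dpi and the smallest at 5 dpi. The share at 2 dpi was also the largest for the most similar types. At the same minimum, capillary endothelial cells were found in 17.9%, 7.93% and 7.45% of spots by time. Stem-like endothelial cells were found in 26.7%, 7.29% and 11.5%, and smooth muscle in 19.3%, 12.8% and 16.4%. Artery endothelial spots were 134 of 859 at 2 dpi, or 15.6% (13.2 to 18.2%). At 5 dpi 32 of 933 spots qualified, or 3.43% (2.36 to 4.81%), and at 7 dpi 56 of 966, or 5.80% (4.41 to 7.46%). Vein endothelial spots were 133 at 2 dpi, or 15.5% (13.1 to 18.1%). At 5 dpi 50 spots qualified, or 5.36% (4.003 to 7.00%), and at 7 dpi 74, or 7.66% (6.06 to 9.52%). The share of spots with either type was 25.8% (22.9 to 28.9%) at 2 dpi. The later sections had 8.25% (6.57 to 10.2%, 5 dpi) and 11.6% (9.64 to 13.8%, 7 dpi). The intervals at 2 dpi did not meet those of the later sections for either vessel type, whereas those at 5 and 7 dpi overlapped. The order of the later sections turned when theta was divided by its sum without the 2 myonuclei types, called rescaled here. Rescaled theta was at least 0.01 for artery in 727 of 859, 605 of 933 and 505 of 966 spots, and for vein in 721, 599 and 492, so that 7 dpi had the smallest share. Rescaled values were higher where myonuclei took more of the total. Spearman's rho of rescaled artery theta with the theta outside myonuclei was -0.79, -0.80 and -0.68 by time.

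In spots of similar depth the order of the sections was the same but the gap was narrower for veins. The window lay around the median depth at 2 dpi but held spots that were shallow for their section at 7 dpi. In the window of 5000 to 10000 UMIs, the artery share was 10.8% (7.57 to 14.9%, 33 spots) at 2 dpi. It was 1.18% (0.243 to 3.399%, 3 spots) at 5 dpi and 4.91% (2.14 to 9.44%, 8 spots) at 7 dpi. The vein share was 11.5% (8.12 to 15.6%, 35 spots) at 2 dpi. It was 4.31% (2.17 to 7.59%, 11 spots) at 5 dpi and 7.98% (4.31 to 13.3%, 13 spots) at 7 dpi. Within the window the interval at 7 dpi overlapped that at 2 dpi for both types, and the interval at 5 dpi lay below that at 2 dpi for both.

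**Figure D1:**
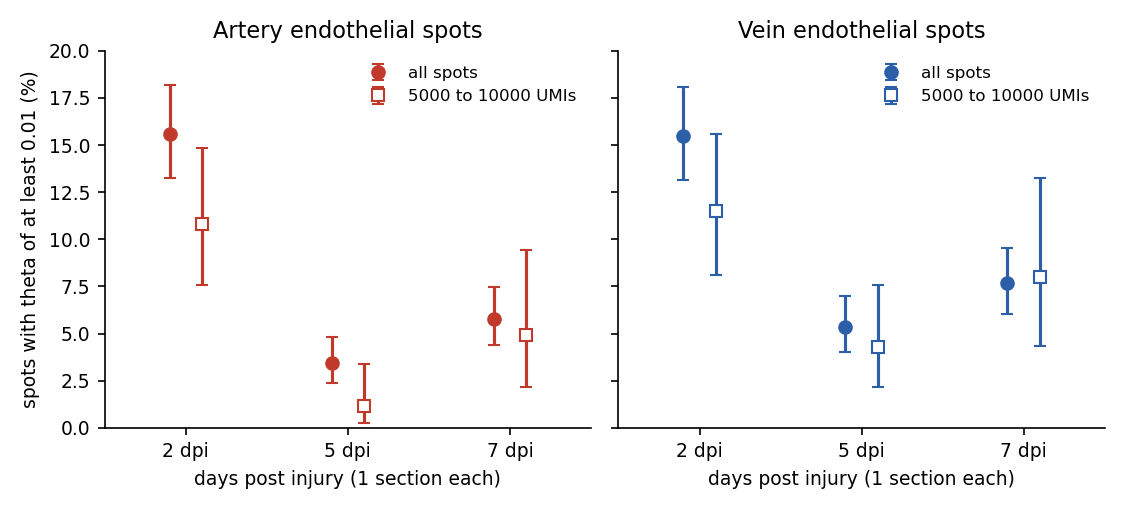
Share of spots (%) with an artery (left, red) or vein (right, blue) endothelial theta of at least 0.01 in the section of each time point, over all spots (filled circles) and spots with 5000 to 10000 UMIs (open squares). Bars are exact 95% intervals over spots. Over all spots the artery shares were 15.6%, 3.43% and 5.80% by time, and the vein shares 15.5%, 5.36% and 7.66%.

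The mean theta as deposited showed the order of the shares. At 2, 5 and 7 dpi the mean artery theta over all spots was 0.00640, 0.00394 and 0.00469, and the mean vein theta was 0.00688, 0.00378 and 0.00455. In the depth window the mean artery theta was 0.00570, 0.00348 and 0.00468, and the mean vein theta was 0.00642, 0.00357 and 0.00570, so the vein mean at 7 dpi approached that at 2 dpi. Over all spots other summaries put 7 dpi lowest. The median artery theta was 0.00526, 0.00312 and 0.00308 and the median vein theta 0.00467, 0.00251 and 0.00244. The rescaled means were 0.0345, 0.0241 and 0.0196 for artery and 0.03002, 0.0195 and 0.0169 for vein. Multiplied by the UMIs of a spot, theta gives an estimated number of transcripts. The median spot was assigned 26.9, 28.5 and 39.0 artery transcripts and 22.7, 24.96 and 30.8 vein transcripts at the 3 times. These estimated numbers were lowest at 2 dpi, whereas the fractions were highest there.

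The shares at 2 dpi fell steeply with depth. When the spots of a section were divided into 5 groups of nearly equal size by UMIs, artery endothelial spots made up 31.4% of the shallowest group at 2 dpi, then 17.4%, 11.7% and 10.5%, and 6.98% of the deepest. The vein shares at 2 dpi were 33.1%, 15.7%, 12.3%, 9.88% and 6.40% from the shallowest to the deepest. At 5 dpi no such fall was seen, with artery shares between 1.61% and 4.84% and vein shares that ran from 3.74% in the shallowest group to 8.56% in the deepest. At 7 dpi the artery share fell from 13.4% to 2.59%, and the vein share was 14.9% in the shallowest group, 4.66% in the middle one and 8.29% in the deepest. The shallowest group at 2 dpi had a median of 2129.5 UMIs against 3510 at 5 dpi and 4707.5 at 7 dpi, so the groups are not of matched depth between sections.

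**Figure D2:**
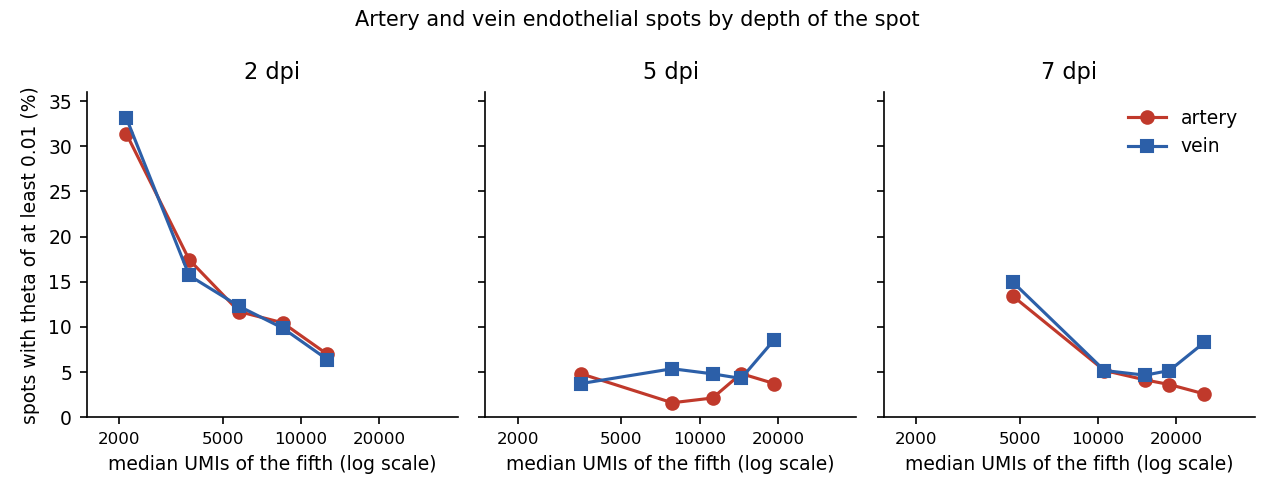
Share of spots (%) with an artery (red circles) or vein (blue squares) theta of at least 0.01 in 5 groups of spots by UMIs, plotted at the median UMIs of the group on a log axis, with 1 panel per section. At 2 dpi both shares fell at each step from the shallowest to the deepest group, from 31.4% to 6.98% for artery and from 33.1% to 6.40% for vein.

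Among the members themselves, both thetas were mostly below 0.02 and the highest values differed between sections. At least 1 of the 2 thetas reached 0.02 in 50 of 222, 16 of 77 and 41 of 112 members by time. The lowest qualifying values were 0.01001, 0.01005 and 0.01008 and the highest values outside were 0.00995, 0.00999 and 0.00999 at 2, 5 and 7 dpi. The higher of the 2 thetas lay between 0.01 and 0.012 in 72, 25 and 30 member spots, and between 0.008 and 0.01 in 98, 42 and 39 spots outside. At a minimum of 0.02, artery endothelial spots numbered 13, 6 and 17 and vein endothelial spots 39, 10 and 30. At this minimum the artery share was 1.51% (0.808 to 2.57%) at 2 dpi and 1.76% (1.03 to 2.80%) at 7 dpi, so the order of these sections turned and the intervals overlapped. At a minimum of 0.05, artery endothelial spots numbered 0 of 859 at 2 dpi, where the exact interval reached 0.429%. They numbered 1 at 5 dpi and 9 at 7 dpi, the latter a share of 0.932% (0.427 to 1.76%). Vein endothelial spots at this minimum numbered 7, 1 and 6.

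The 2 vessel thetas of the members were also set against the lowest theta of the same spot. Over all members, whichever type qualified them, the median vein theta was 2.95 times the lowest theta at 2 dpi, 8.29 times at 5 dpi and 7.75 times at 7 dpi. The artery theta was 2.98, 4.30 and 5.41 times the lowest. In spots outside, the corresponding medians were 2.27, 2.57 and 2.79 for vein and 2.57, 3.004 and 3.39 for artery. The medians of members and of spots outside were closer together at 2 dpi than at 5 and 7 dpi. Each vein median includes the 89, 27 and 38 members with artery only, and each artery median the 88, 45 and 56 with vein only. The medians therefore do not give the height of a qualifying theta. At 2 dpi the median member had 14 types at or above 0.01, against 5 in spots outside. The medians were 8 against 5 at 5 dpi, and 9.5 against 6 at 7 dpi.

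The spots with the highest values show what lay beside the vessel types. At 2 dpi 1 spot held both the highest artery theta (0.0467) and the highest vein theta (0.153), and it was among the shallowest at 1085 UMIs, with adipogenic fibro-adipogenic progenitors (FAPs) at 0.0667 and smooth muscle at 0.0556. The next highest artery theta at 2 dpi, 0.0397 in a spot of 2754 UMIs, also came with a high vein theta of 0.0899 and with stem-like endothelial cells at 0.0867. Both spots thus combined artery and vein with another vessel or stromal type. A spot of 5411 UMIs at 2 dpi had a vein theta of 0.123 and an artery theta of 0.00425, with type IIb and IIx myonuclei, the nuclei of fast myofibers, at 0.471 and 0.224.

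At 5 dpi the highest artery theta was 0.0891, in a spot of 4085 UMIs in which smooth muscle reached 0.223 and exceeded type IIb myonuclei at 0.210. The remaining artery values at 5 dpi were at most 0.0368. The highest vein theta at 5 dpi was 0.0636, in a spot of 14928 UMIs with an artery theta of 0.00143, smooth muscle at 0.0416 and pro-remodeling FAPs, stromal cells that deposit matrix, at 0.155. The highest artery and the highest vein values at 5 dpi thus lay in different spots.

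At 7 dpi the highest artery theta was 0.133, in a spot of 4914 UMIs in which smooth muscle was 0.315 and the vein theta 0.0150. The next 3 artery values were 0.110, 0.0914 and 0.0699, and in each of these spots adipogenic FAPs were the highest type outside myonuclei, at 0.199, 0.248 and 0.429. The highest vein theta was 0.118, in a spot of 6336 UMIs in which smooth muscle was also 0.118, fusing myocytes were 0.185 and the artery theta was 0.00313. Of the 5 highest artery spots at 7 dpi, 4 had between 4778 and 4914 UMIs, well below the median of the section.

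The next question was whether the 2 vessel types fell in the same spots. They shared 45 spots at 2 dpi against 20.7 expected from the product of their shares, 5 against 1.71 at 5 dpi and 18 against 4.29 at 7 dpi. The shared spots were 33.6% of artery and 33.8% of vein endothelial spots at 2 dpi, 15.6% and 10.0% at 5 dpi, and 32.1% and 24.3% at 7 dpi. Observed over expected was 2.17 at 2 dpi (1.59 to 2.88), 2.92 at 5 dpi (0.948 to 6.78) and 4.20 at 7 dpi (2.49 to 6.60), where the interval covers the count of shared spots. The interval at 5 dpi included 1. At 2 dpi other pairs lay on both sides of the artery and vein value of 2.17. Observed over expected was 2.39 for vein and capillary, 2.37 for vein and stem-like endothelial cells, and 2.00 for artery and capillary. The excess at 2 dpi was thus not particular to artery with vein.

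The effect of depth on the excess at 2 dpi depended on how depth was handled. With the expected number formed within the 5 groups by UMIs, observed over expected was 1.63 (1.20 to 2.16) at 2 dpi, and at 5 and 7 dpi it was 2.98 (0.969 to 6.93) and 3.24 (1.93 to 5.09). In the window of 5000 to 10000 UMIs, 8 spots were shared at 2 dpi against 3.79 expected, 1 at 5 dpi against 0.129, and 4 at 7 dpi against 0.638. The window value at 2 dpi was 2.11 (0.917 to 4.11), close to that over all spots but with an interval that included 1. At a minimum of 0.02 the shared spots numbered 2 at 2 dpi and 6 at 7 dpi. At 5 dpi they numbered 0 of 933 spots, where the exact interval reached 0.395%. The 6 shared spots at 7 dpi were 35.3% of artery and 20% of vein endothelial spots at that minimum.

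Across all spots of a section, Spearman's rho between artery and vein theta was 0.56 over 859 spots at 2 dpi, 0.40 over 933 at 5 dpi and 0.42 over 966 at 7 dpi. In the depth window it was 0.52 over 305 spots, 0.44 over 255 and 0.39 over 163. These spots share a library, and the 2 thetas of a spot share their total and their dependence on depth. In the window, rho of artery theta with the 23 other types outside myonuclei had medians of 0.34, 0.28 and 0.15 by time, and its highest values were 0.43, 0.49 and 0.47. The highest was stem-like endothelial cells at 2 and 7 dpi and capillary endothelial cells at 5 dpi. Seen from artery, 0, 2 and 2 of the 23 types had a higher rho than vein at 2, 5 and 7 dpi. Seen from vein, 9, 2 and 2 types had a higher rho than artery, and the highest at 2 dpi was 0.61 with stem-like endothelial cells. With rescaled theta in the window, artery with vein was 0.71 at 2 dpi and artery with capillary was 0.72. All rescaled types of a spot share 1 divisor, the theta outside myonuclei. Rescaled artery and vein theta had rho of -0.83 and -0.71 with this divisor in the same spots, so these values are not free of it.

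**Figure D3:**
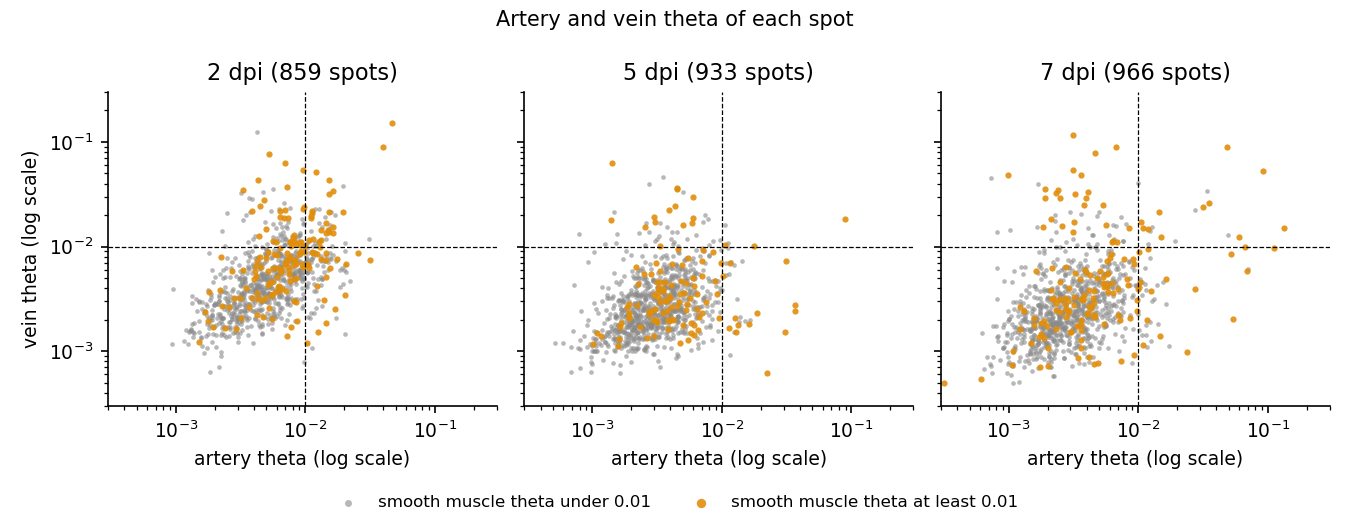
Artery theta (x axis, log scale) against vein theta (y axis, log scale) for each spot of the 3 sections. Dashed lines mark 0.01, and orange points are spots with a smooth muscle theta of at least 0.01. Spots above both lines numbered 45, 5 and 18 at 2, 5 and 7 dpi, and artery values above 0.05 were seen in 0, 1 and 9 spots.

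Among the companions, smooth muscle cells, which form the contractile wall of arteries and veins, were set out first. Smooth muscle theta was at least 0.01 in 35.1% (27.04 to 43.8%) of artery and 41.4% (32.9 to 50.2%) of vein endothelial spots at 2 dpi, against 13.7% (11.1 to 16.6%) of spots outside. At 5 dpi the shares were 50.0% (31.9 to 68.1%) of artery and 34.0% (21.2 to 48.8%) of vein endothelial spots against 10.4% (8.43 to 12.6%). At 7 dpi they were 48.2% (34.7 to 62.0%) and 50.0% (38.1 to 61.9%) against 12.3% (10.2 to 14.7%). In every section the intervals of both vessel types lay above that of the spots outside. Counting smooth muscle, this held at 2 dpi for 23 of the 25 other types in artery and 22 in vein endothelial spots. It held for 1 and 13 types at 5 dpi, and for 12 and 15 at 7 dpi. The shared spots were 28.3%, 13.4% and 17.1% of all smooth muscle spots for artery, and 33.1%, 14.3% and 23.4% for vein.

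In the window of 5000 to 10000 UMIs, smooth muscle was present in 9 of 13 vein endothelial spots at 7 dpi, or 69.2% (38.6 to 90.9%), against 10.3% (5.87 to 16.4%) of the spots outside. At 5 dpi it was present in 5 of 11 vein endothelial spots, or 45.5% (16.7 to 76.6%), against 9.09% (5.79 to 13.4%). At 2 dpi it was 9 of 35 vein endothelial spots, or 25.7% (12.5 to 43.3%), against 10.6% (7.05 to 15.2%). The intervals overlapped at 2 dpi and did not at 5 and 7 dpi. For artery the window held 7 of 33, 1 of 3 and 4 of 8 spots with smooth muscle, and the interval overlapped that of the spots outside in every section. At a minimum of 0.02 for both types, all 6 artery endothelial spots at 5 dpi also carried smooth muscle, against 0.264 expected, as did 6 of 13 at 2 dpi and 7 of 17 at 7 dpi.

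**Figure D4:**
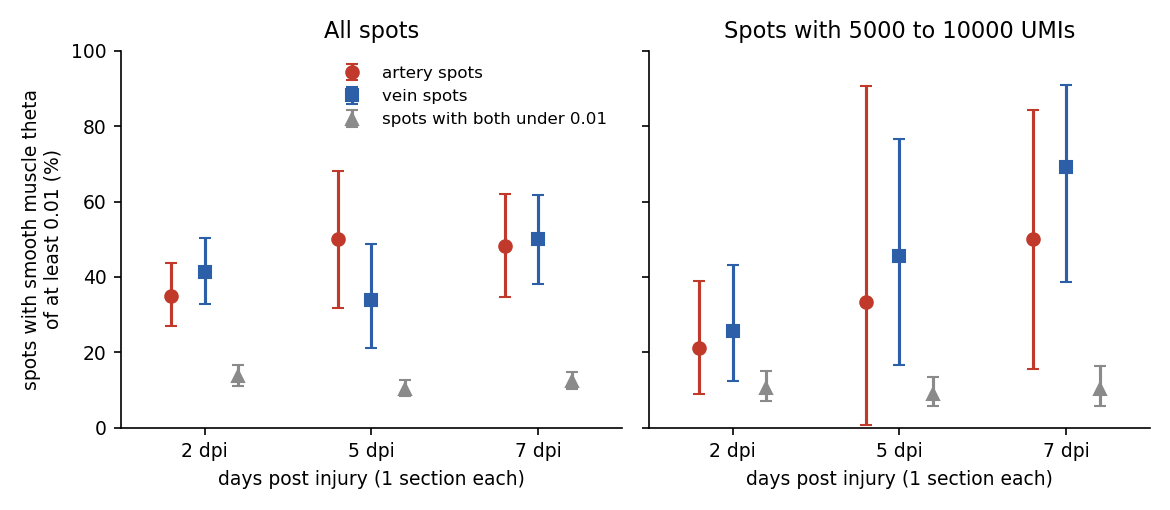
Share (%) of artery (red circles), vein (blue squares) and other spots (grey triangles) with a smooth muscle theta of at least 0.01 in each section, over all spots (left) and spots with 5000 to 10000 UMIs (right). Bars are exact 95% intervals over spots. Over all spots the vessel spots lay between 34.0% and 50.0% and the others between 10.4% and 13.7%.

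The mean smooth muscle theta of the members was 1.68 times that of the spots outside at 2 dpi, 2.84 times at 5 dpi and 4.68 times at 7 dpi. Without the 1 member with the highest smooth muscle theta the ratios were 1.64, 2.42 and 3.999. In the depth window the ratios were 1.44, 1.14 and 9.63, and without the highest member that at 5 dpi was 0.991 and that at 7 dpi 4.96. The 2 myonuclei types were then left out and the other thetas scaled up to a total of 1. This removes the part of the total taken by myofibers, and it scales up most the spots in which that part was largest. The ratios over all spots were then 0.822, 2.24 and 2.58, and those of spots within the window were 0.836, 1.04 and 3.85. Smooth muscle was thus higher in the members at 7 dpi under each of these settings, and at 2 dpi its direction turned with the rescaling.

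The other endothelial types, capillary and stem-like, were present in a smaller share of members at 5 and 7 dpi than at 2 dpi. Capillary endothelial cells, which line the smallest vessels, were present in 35.6% (29.3 to 42.3%) of members at 2 dpi against 11.8% (9.37 to 14.5%) outside, in 11.7% (5.49 to 21.0%) against 7.59% (5.91 to 9.58%) at 5 dpi, and in 17.0% (10.5 to 25.2%) against 6.21% (4.68 to 8.04%) at 7 dpi. The intervals overlapped at 5 dpi. Artery and capillary shared 48 spots at 2 dpi against 24.02 expected, 1 at 5 dpi against 2.54, and 15 at 7 dpi against 4.17. Vein and capillary shared 57 against 23.8, 8 against 3.97 and 13 against 5.52. The capillary mean was 1.66, 1.32 and 1.72 times that of the spots outside, and 0.641, 0.732 and 0.967 times after the rescaling.

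Stem-like endothelial cells were present in 54.1% (47.3 to 60.7%) of members at 2 dpi against 17.1% (14.3 to 20.3%) outside, in 10.4% (4.59 to 19.4%) against 7.01% (5.39 to 8.93%) at 5 dpi, and in 25% (17.3 to 34.1%) against 9.72% (7.82 to 11.9%) at 7 dpi. The ratio of means was 1.85, 1.20 and 1.495, and after the rescaling 0.918, 0.648 and 0.975. Both endothelial types were therefore higher in the members as deposited and lower after the rescaling in all 3 sections, when all spots were taken. In the depth window the rescaled ratio at 7 dpi was 1.26 for capillary and 1.03 for stem-like endothelial cells.

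Of the 2 myonuclei types, type IIb was less represented in the members and type IIx was not. Type IIb myonuclei had a mean theta of 0.487 in the members and 0.673 outside at 2 dpi, 0.501 and 0.613 at 5 dpi, and 0.466 and 0.585 at 7 dpi. In the window the means were 0.502 and 0.700, 0.522 and 0.676, and 0.429 and 0.623. Type IIx myonuclei had ratios of means of 1.16, 1.04 and 1.17 over all spots and 1.73, 1.45 and 1.13 in the window. Because the 2 myonuclei types took most of the total, a lower type IIb fraction leaves more of it for all other types. The mean theta was higher in the members for 24 of the 25 other types at 2 dpi, 21 at 5 dpi and 22 at 7 dpi. After the rescaling it was higher for 7, 9 and 13 of 23 types, and in the window for 7, 12 and 10.

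Stromal types were among the companions with the higher ratios. Adipogenic FAPs, progenitors with a bias to the fat lineage, had a mean theta 1.70 times that of the spots outside at 2 dpi, 2.56 times at 5 dpi and 2.76 times at 7 dpi. In the window the ratios were 1.75, 2.58 and 2.83, and after the rescaling within the window they were 0.885, 1.28 and 1.27. Tenocytes, the fibroblasts of tendon, had ratios of 2.11, 2.11 and 1.94 over all spots and 1.80, 2.13 and 2.54 in the window, and rescaled ratios in the window of 1.08, 1.12 and 1.70. Tenocytes were thus above 1 in all 3 sections under these settings, although the rescaled window value at 5 dpi was 0.931 without the highest member, and the ratio over all spots at 5 dpi was 0.769 when members were taken at a minimum of 0.02.

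Pro-remodeling FAPs and stem FAPs differed from this. Pro-remodeling FAPs had ratios of 1.56, 0.940 and 0.866 over all spots and 2.05, 1.07 and 1.05 in the window, so their direction at 5 and 7 dpi turned with depth. The window values were 1.85, 0.849 and 0.781 without the highest member, and 1.09, 0.903 and 0.687 after the rescaling in the window. Stem FAPs had ratios of 1.27, 1.16 and 1.32 over all spots, 0.970, 1.48 and 0.871 in the window, and 0.582, 0.851 and 0.635 after the rescaling in the window. Adipogenic FAPs had the highest ratio of the 3 FAP types at 7 dpi in each of these settings.

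The ratios of immune types depended on the section. Patrolling monocytes are the study's label for cells high in Fabp5 and negative for Cx3cr1 and Ly6c2. They had a mean theta of 0.107 in the members against 0.0677 outside at 2 dpi, a ratio of 1.59. At 5 and 7 dpi the ratios were 1.04 and 1.001. The window ratios were 1.95, 1.72 and 1.18, and 1.53, 1.01 and 0.750 after the rescaling. Cx3cr1-hi M2 macrophages, a subset linked to repair, had ratios of 1.61, 2.02 and 1.05 over all spots, and of 1.21, 3.70 and 2.52 in the window. After the rescaling in the window they had ratios of 0.701, 2.09 and 1.51, but without the highest of 13 members the unscaled value at 5 dpi was 2.43. Dendritic cells, which present antigen, had ratios of 1.56, 2.69 and 2.38 over all spots, which were 1.47, 1.41 and 1.66 without the highest member, and 1.09, 1.92 and 1.10 in the window. Natural killer cells had ratios of 1.72, 2.19 and 2.48, which were 1.70, 1.54 and 1.77 without it, and 1.30, 2.51 and 1.91 in the window.

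The direction of the named myogenic and neural types changed between sections over all spots for fusing myocytes and neural cells, while all their ratios in the window were above 1. Fusing myocytes, the last stage before the myofiber, had ratios of 1.32, 1.10 and 0.815 over all spots and 1.64, 1.09 and 1.02 in the window, of which the last was 0.932 without the highest member. Quiescent muscle stem cells (MuSCs), the resting precursors of new myofibers, had ratios of 1.44, 1.252 and 1.91 over all spots, 0.746, 0.8002 and 1.21 after the rescaling, and 1.24, 1.34 and 2.003 in the window. Neural cells had ratios of 1.54, 0.765 and 1.03, and at 7 dpi the ratio was 0.680 without the highest member. In the window the neural ratios were 1.35, 1.33 and 1.70, and 0.760, 0.681 and 0.920 after the rescaling. Across the 25 types the ratio in the window ran from 0.717 to 2.05 at 2 dpi, from 0.771 to 3.70 at 5 dpi and from 0.689 to 9.63 at 7 dpi.

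**Figure D5:**
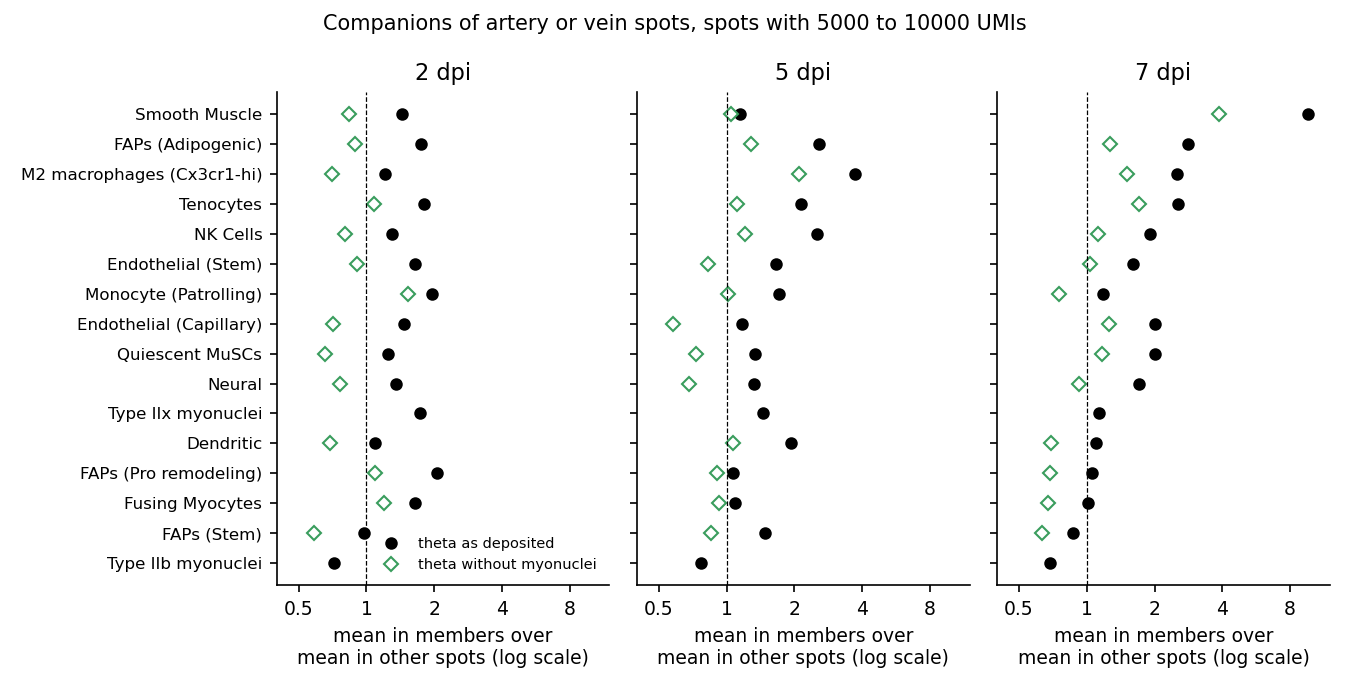
Mean theta in members over mean theta in the other spots (x axis, log scale) for the 16 named types, in spots with 5000 to 10000 UMIs of each section. Black circles are theta as deposited and open green diamonds theta rescaled without the 2 myonuclei types, which then have no value. Most circles lie right of 1, and the diamonds lie on both sides, with smooth muscle at 7 dpi farthest right at 9.63 and 3.85.

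Spots counted for 1 vessel type only were then set against each other. There were 89, 27 and 38 spots with artery only and 88, 45 and 56 with vein only at 2, 5 and 7 dpi. Spots with vein only had less type IIb myonuclei theta in every section, with means of 0.441 against 0.577 at 2 dpi, 0.441 against 0.614 at 5 dpi and 0.440 against 0.545 at 7 dpi. Within the window the means were 0.487 against 0.587, 0.503 against 0.616 and 0.422 against 0.484. The window held only 2 and 4 spots with artery only at 5 and 7 dpi, so the values of these sections rest on few spots.

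Over all spots tenocytes were higher beside vein than beside artery, but so were most types in the 2 earlier sections. At 2 dpi the exceptions were type IIb myonuclei, stem FAPs and neural cells. At 5 dpi they were smooth muscle and the 2 myonuclei types, and the vein over artery ratio of Cx3cr1-hi M2 macrophages was 3.51. At 7 dpi the types lay on both sides of 1. These values were not rescaled. The mean tenocyte theta was 0.0277 in spots with vein only and 0.00929 in spots with artery only at 2 dpi, a ratio of 2.98, and the ratio was 2.12 at 5 dpi and 1.64 at 7 dpi. A tenocyte theta of at least 0.01 was found in 39.8% of vein only and 16.9% of artery only spots at 2 dpi, 37.8% and 22.2% at 5 dpi, and 42.9% and 26.3% at 7 dpi. Among spots of the window the ratios were 3.55, 0.911 and 1.22. Dendritic cells had vein over artery ratios of 1.68, 3.10 and 5.54 over all spots, and were present in 27.3% against 15.7%, 20% against 7.41% and 28.6% against 2.63% of the spots. In the window the dendritic ratios were 1.04, 2.14 and 1.08. Smooth muscle had vein over artery ratios of 1.07, 0.391 and 1.38 over all spots. In the window they were 1.20, 2.12 and 14.9, so the direction at 5 dpi turned. These window values compare 10 vein only with 2 artery only spots at 5 dpi, and 9 with 4 at 7 dpi. At 7 dpi the means were 0.0952 and 0.00640, but the medians 0.0170 and 0.00408. The spot with the highest artery theta at 5 dpi held both vessel types and is in neither group.

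Measures formed without the deconvolution were the number of genes and the percent of UMIs from mitochondrial, ribosomal protein and hemoglobin genes. They were counted in the same spots and from the same libraries as theta, so they are not independent of it. In the window of 5000 to 10000 UMIs the median member had 2196 genes against 1878 in the spots outside at 2 dpi, 2235 against 1990.5 at 5 dpi and 2343 against 2157 at 7 dpi. The quartiles overlapped in all 3 sections. The median mitochondrial percentage was 25.4% in members against 32.4% at 2 dpi, 22.2% against 23.6% at 5 dpi and 11.9% against 18.0% at 7 dpi. The median ribosomal protein percentage was 6.95% against 4.98%, 7.56% against 6.48% and 9.73% against 7.08%. At similar depth the median member thus had more genes, less mitochondrial and more ribosomal protein RNA in each section.

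The 2 vessel types differed in these measures. With the spots outside weighted to the UMI groups of the members, vein endothelial spots had 198 more genes at 2 dpi, 363 more at 5 dpi and 152 more at 7 dpi on average. Their mitochondrial percentage differed by -5.68, -6.38 and -2.70 percentage points and their ribosomal protein percentage by 1.71, 2.57 and 1.21 points. Artery endothelial spots differed by 63.4 genes at 2 dpi, and by -142 and -152 genes at 5 and 7 dpi. Their mitochondrial percentage differed by -2.79, 1.21 and 1.60 points and their ribosomal protein percentage by 0.835, -0.273 and -0.263 points. The direction was the same in 3 of 3 sections for vein and turned after 2 dpi for artery in all 3 measures.

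Hemoglobin RNA, a sign of red blood cells in a spot, made up 0.0631% of the UMIs of members at 2 dpi against 0.0192% of those outside. Of the 692 hemoglobin UMIs of these members, 451 lay in 1 spot with vein endothelial theta, and without it the share was 0.0221%. At 5 dpi the shares were 0.172% and 0.1202%, or 0.131% in the members without the spot with most hemoglobin, and at 7 dpi they were 0.231% and 0.117%, or 0.191%. Hemoglobin was detected in 29.7% (23.8 to 36.2%) of members and 26.5% (23.1 to 30.1%) of other spots at 2 dpi, in 87.0% (77.4 to 93.6%) and 85.4% (82.9 to 87.7%) at 5 dpi, and in 93.8% (87.5 to 97.5%) and 91.3% (89.2 to 93.1%) at 7 dpi. These intervals overlapped in every section. In the window the hemoglobin shares of members and others were 0.129% and 0.0113% at 2 dpi, 0.170% and 0.111% at 5 dpi, and 0.558% and 0.229% at 7 dpi. Without the 1 member with most hemoglobin UMIs the member shares were 0.0238%, 0.116% and 0.273%. The 2 spots with the highest artery and vein values at 2 dpi held 0 hemoglobin UMIs, and the spots with the highest artery theta at 5 and 7 dpi held 0 and 4.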

How the data were processed

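Values per spot were read for Visium sections of injured mouse muscle at 2, 5 and 7 dpi, 1 per time point, grouped by the injury day in the sample labels. Space Ranger 1.0 and Seurat 3.2.1 are named in the submitters' processing notes, with genome build mm10. The authors deposited UMI counts and gene numbers per spot with no normalization. The deposited percent values are the part of a spot's UMIs from genes of mitochondria, hemoglobin or ribosomal proteins. The theta values deposited by the authors are fractions from BayesPrism, which treated each spot as a bulk sample, and they sum to 1 over 27 types. Image alignments were not used, and gene-level counts were not analysed here.

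Spots with an artery or vein theta of at least 0.01 were members. No further filter was applied. Means gave each spot equal weight, and shared spots were expected at the product of both spot counts divided by the number of spots. Rescaled theta was divided by its sum without the 2 myonuclei types. Standardised differences weighted the other spots to the members of each of 5 UMI groups. Intervals were exact binomial at 95%. For ratios of shared spots, the binomial interval of the shared count was divided by the expected number. Python 3.11.15, numpy 2.4.6, pandas 2.3.3, scipy 1.17.1 and matplotlib 3.10.9 were used, and the code was tested on simulated data. The precision of every share was set by the number of spots, from 163 in the smallest window to 966.

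Types given with values were the endothelial, smooth muscle and myonuclei types, and any other type whose rescaled ratio in spots with 5000 to 10000 UMIs was among the 3 highest or 3 lowest in a section, which made 16. The highest spots of each section are shown as examples and were chosen by their values. The members, the lists and the window were chosen with earlier results of these data known. Alternatives were other minimum thetas, at most 10 types per spot, other depth limits, medians, UMI-weighted means and the rescaling. Leaving out the highest member spot was added after seeing the data.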

Additional observations from a re-analysis of the deposited data

Results flagged for a closer look

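Over all spots, for 4 cell types the ratio of the mean theta in artery or vein endothelial spots to that in the other spots of the section lay above 1 in some sections and below 1 in others. Each difference between sections was not tested, since there was 1 section per time point, and the sections differ in animal, capture area and depth as well. Pro-remodeling FAPs, which deposit matrix, had ratios of 1.56, 0.940 and 0.866 by time (2, 5 and 7 dpi). Fusing myocytes, the last stage before the myofiber, had ratios of 1.32, 1.10 and 0.815 at 2, 5 and 7 dpi. Cxcl10+ monocytes, which carry an interferon-induced chemokine transcript, had ratios of 1.73, 0.993 and 2.56. Neural cells had ratios of 1.54, 0.765 and 1.03, and the value at 7 dpi was 0.680 without the member with the highest neural theta. In spots with 5000 to 10000 UMIs these changes of direction were not seen in theta as deposited, and all 4 types lay above 1 in every section. Single spots and the rescaling altered this. Without the highest member, pro-remodeling FAPs lay below 1 there at 5 and 7 dpi, and fusing myocytes at 7 dpi. Rescaled ratios there at 2 and 7 dpi were 1.09 and 0.687 for pro-remodeling FAPs and 1.20 and 0.673 for fusing myocytes. Rescaled neural ratios there lay below 1 in every section. As deposited, with all members of these spots, the ratios were 2.05, 1.07 and 1.05 for pro-remodeling FAPs and 1.64, 1.09 and 1.02 for fusing myocytes. They were 1.48, 1.51 and 1.60 for Cxcl10+ monocytes and 1.35, 1.33 and 1.70 for neural cells.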

How the results depend on the processing

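No paired analysis was possible because each time point had 1 section. Of 81 values for the change over time, the sharing of spots and the counts of companions, 54 stayed within their limit (the counting interval for shares and sharing, a fixed factor for means, and 1.5 times for counts of types), 26 moved and 1 turned its direction. The cause was not tested. As ratios of 5 to 2 dpi, the artery share was 0.425 at a minimum of 0.02, 0.109 in the depth window, 0.384 with at most 10 types and 0.766 after the rescaling, and the vein share was 0.132 at 0.05, 0.567 with 10 types and 0.765 rescaled. As ratios of 7 to 2 dpi, the artery share was 1.16 at 0.02, which turned its direction, and 0.618 rescaled, the vein share was 0.762 at 0.05 and 0.862 with 10 types, the mean artery theta was 0.585 as a median and 0.569 rescaled, and the mean vein theta 0.523 as a median and 0.888 in the window. Artery and vein sharing over expected was 3.39 at 0.02 and 1.09 rescaled at 2 dpi, 7.73 in the window at 5 dpi from 1 spot, and 11.4 at 0.02, 17.9 at 0.05 and 1.53 rescaled at 7 dpi. Companions higher after the rescaling, over all spots and in the window, were 7 and 7 at 2 dpi, 9 and 12 at 5 dpi, and 13 and 10 at 7 dpi. Artery share ratios at 0.05 were not formed because 2 dpi had 0 such spots, against 1 at 5 dpi and 9 at 7 dpi, so 2 dpi was lowest at this minimum. Sharing at 0.05 was not formed at 2 dpi, with 0 artery and 7 vein spots. At 5 dpi it was not formed at 0.02, with 6 artery and 10 vein spots, or at 0.05, with 1 of each, and 0 spots were shared.

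Of 324 values for single companions, 207 stayed within a fixed factor and 19 turned from a ratio of at least 1.5 to one below 1, and 98 moved otherwise. A further 45 crossed 1 from ratios nearer to it, 14 of them under the rescaling and 10 under the rescaling in the window. Of those 19, at 2 dpi the rescaling gave capillary 0.641, stem-like endothelial 0.918, smooth muscle 0.822, dendritic 0.909, pro-remodeling FAPs 0.836, neural 0.728, adipogenic FAPs 0.759 and Cx3cr1-hi M2 macrophages 0.983. With the window as well it gave capillary 0.707, stem-like 0.905, smooth muscle 0.836, dendritic 0.686, neural 0.760, natural killer 0.802, adipogenic FAPs 0.885 and Cx3cr1-hi M2 macrophages 0.701. At 5 dpi tenocytes were 0.769 at a minimum of 0.02. At 7 dpi the rescaling gave capillary 0.967, and with the window dendritic 0.691.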
